A study of Homo sapiens with 8 samples.

Results

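The transcripts that moved together with 3 CRISPR activation systems were followed in HEK293T cells, a long-established line from human embryonic kidney, by comparing 6 activator libraries with the 2 Control libraries of the same experiment. A gene was counted as a member of the common response where its 6 activator values all lay above, or all lay below, both Control values. Of 19770 genes in the files, 15122 reached 1 CPM in at least 2 libraries and were tested. All 6 activator values lay above both Control values for 3501 of these (23.2%) and below both for 1387 (9.17%), and the values of the other 10234 genes overlapped. The members were chosen on the same values that were then tested, so the absence of overlap is a description and not separate support for a change.

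Each of the 4 groups had 2 libraries, harvested 72 h after transfection of 125000 cells with a lipid reagent. The Control group received dCas9 and MCP-mCherry, a coat protein carrying only a fluorescent reporter. The DREAM group received dCas9 and MCP-MSN, in which MSN joins activation domains of human transcription factors that include MRTF-A and NRF2. The SAM group received dCas9-VP64 and MCP-p65-HSF1. These 3 groups had 187.5 ng of each plasmid, whereas the dCas9-VPR group had 375 ng of 1 plasmid with the effector fused to dCas9. Every group, Control included, also received 125 ng of pooled gRNAs for the *HBG1* and *HBG2* promoters. A change shared by the activators and the loss of whatever the MCP-mCherry plasmid does on its own therefore cannot be told apart, because 1 kind of Control was compared with all of them. The sources used here call the libraries duplicates and say no more about their cultures, so p-values measure only the spread between these libraries.

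CRISPR activation uses a Cas9 that binds DNA without cutting it. In the DREAM and SAM systems, hairpins from the MS2 phage in the gRNA recruit an MCP fusion, and the activation domains it carries recruit coactivators such as p300, CBP and Mediator. The targets here encode the gamma chains of fetal haemoglobin, which erythroid cells express before birth and which kidney cell lines keep silent.

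Depth was estimated at 28.4 to 35.1 M reads per library from the spacing of low values, so that 3 reads correspond to between 0.0854 and 0.105 CPM. Over 9799 genes averaging 10 CPM or more, replicates of a group differed on the log2 scale with an SD of 0.115 to 0.172. Of 9 genes that mark HEK293T cells, 8 had at least 1 CPM in every library, and their summed level was 807.7 to 912.5 CPM with Control and 811.4 to 1046 CPM with the activators. Of 5 erythroid markers in the files, 0 reached 1 CPM in every library. The highest single value among them was 1.21 CPM, for the adult globin gene *HBA1*.

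Limma gave fold changes as the mean of the 3 systems relative to Control, on the log2(CPM + 0.5) scale, where the added 0.5 CPM makes changes of low genes look smaller than they are. With the Benjamini-Hochberg adjusted p below 0.05, 4166 genes rose (27.5% of genes tested) and 1462 fell (9.67%). Median-of-ratios scaling made these counts 2649 (17.5%) and 2432 (16.1%), and a fit with 1 mean for all activator libraries made them 1305 and 498. With a fold change above 2 as well, 191 rose (1.26%) and 74 fell (0.489%), and these are called past the threshold. Of these 265 genes (1.75% of genes tested), 251 were members of the common response, 177 above and all 74 of the falls below. The median log2 fold change was 0.36 over the members above and -0.32 over the members below, against a median over all genes of 0.097. Median-of-ratios scaling brought that median to 0.011 and moved the members to 2408 above and 2226 below. The share of members lying above was 71.6% with the deposited scaling and 52.0% with median-of-ratios scaling. Under both scalings 2407 genes lay above and 1387 below, and 0 changed sides. Past the threshold, 161 genes were higher and 87 lower with that scaling, and 235 genes were shared with the 265.

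**Figure D1:**
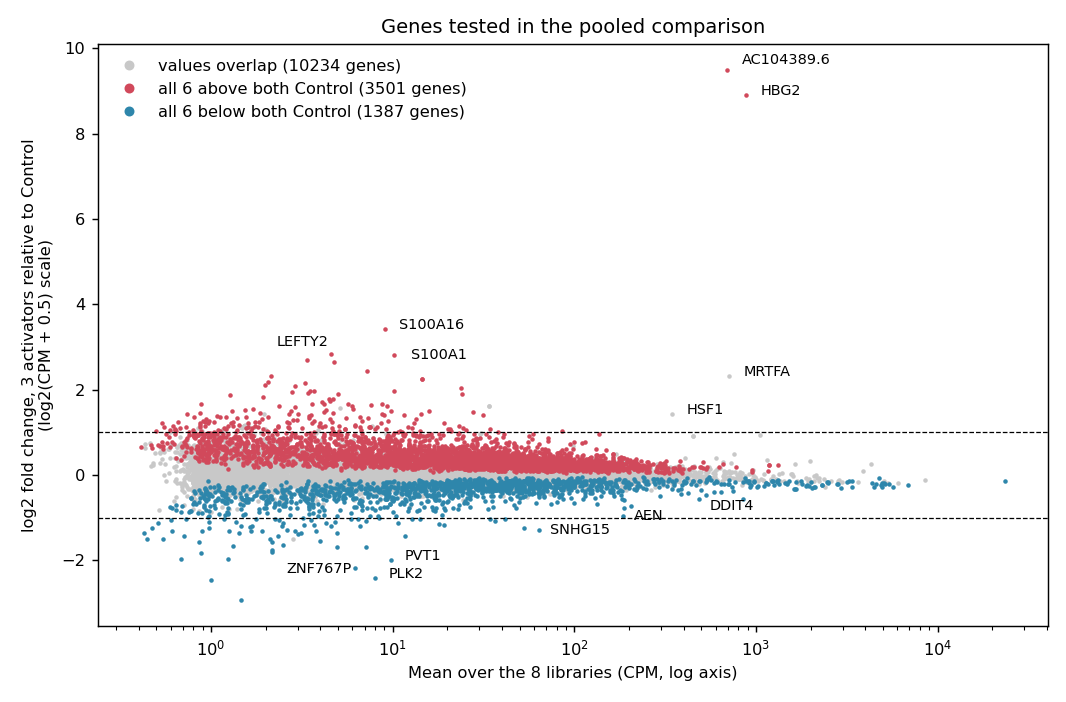
Each point is a gene, with its mean over the 8 libraries in CPM (log axis) and its pooled log2 fold change of the 3 activators relative to Control on the log2(CPM + 0.5) scale. Red points are the 3501 genes above and blue points the 1387 genes below both Control values, dashed lines mark a fold change of 2, and most members lie well inside those lines.

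The 14 genes past the threshold whose values overlapped Control were all higher, and 13 of them overlapped through a dCas9-VPR library, 2 through a DREAM library and 0 through a SAM library. They include *MRTFA* and *HSF1*, which are carried by transfected effectors. *MRTFA* was at 29.6 and 26.7 CPM with Control, 2819 and 2691 CPM with DREAM, 33.1 and 31.0 CPM with SAM, and 33.5 and 29.4 CPM with dCas9-VPR. *HSF1* was at 61.6 and 58.0 CPM with Control, 1173 and 1230 CPM with SAM, and between 54.9 and 68.8 CPM in the other activator libraries. *NFE2L2*, which encodes NRF2, was not past the threshold and was raised in DREAM libraries alone, at 274.7 and 268.0 CPM against 35.7 to 47.0 CPM in the others. A fold change of 2 in the pooled comparison can thus come from a single system. Such a gene is left out of the members only where another library overlaps Control, as *MRTFA* does at 29.4 CPM against 29.6 CPM. Not all of the 14 were raised by a single system. *TCEAL7* was at 3.25 and 2.93 CPM with Control, 10.5 to 15.1 CPM with DREAM and SAM, and 2.6 and 2.34 CPM with dCas9-VPR.

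At the boundary, *LINC01152* was the rise that came closest to overlapping, with a lowest activator value of 1.66 CPM and a highest Control value that also rounds to 1.66 CPM. *HLA-DRB5* followed at 3.15 against 2.98 CPM. Among the falls, the highest activator value of *OVGP1* was 6.43 CPM against a lowest Control value of 8.42 CPM.

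The largest rises were at the targets themselves. *HBG2*, at chr11:5253188-5505606 on hg38 as the files give it, was at 1.29 and 0.838 CPM with Control and between 201.3 and 2874 CPM in the activator libraries, a pooled log2 fold change of 8.91 (SE 0.14, limma adjusted p = 8.05e-08). *AC104389.6*, a gene model at chr11:5248270-5254784 that covers *HBG1* and the adjoining end of the *HBG2* span, was at 0.206 and 0.488 CPM with Control and between 167.4 and 2236 CPM with the activators (log2 fold change 9.48, SE 0.15, limma adjusted p = 8.05e-08). *HBG1* was listed at 0 in both Control libraries and at 0.385 to 12.7 CPM with the activators, so no fold is given. In all 3 genes the DREAM libraries were the highest and the dCas9-VPR libraries the lowest, with no overlap between systems. The 3 gene models share sequence, and the division of reads among them is uncertain.

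Around the targets, 12 genes in the files lie within 500 kb and 9 were tested. Over all genes tested 23.2% lay above both Control values and 9.17% below, and of these 9 genes 6 lay above and 0 below. The 6 genes above were the target gene models, *HBBP1*, *AC104389.5* and *TRIM5*. *HBBP1*, a globin pseudogene 4.73 kb from *HBG1*, was listed at 0 in both Control libraries, at 1.01 and 1.83 CPM with DREAM, 0.372 and 0.597 CPM with SAM and 0.086 and 0.0964 CPM with dCas9-VPR. The dCas9-VPR values are at the worth of 3 reads. *AC104389.5*, whose span overlaps *HBG2*, rose from 0.0377 and 0.184 CPM to between 0.946 and 5.18 CPM (log2 fold change 2.19, limma adjusted p = 6.54e-06). *TRIM5*, a restriction factor against retroviruses, was at 7.85 and 8.63 CPM with Control and 8.97 to 10.8 CPM with the activators, a log2 difference of 0.21. The embryonic globin gene *HBE1* overlapped, at 0.766 and 1.2 CPM with Control and 0.372 to 1.79 CPM with the activators. *TRIM6* and *TRIM22* overlapped as well.

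Outside the globin locus, the largest rise was that of *S100A16* on 1q21, and *LEFTY2* and the nearby *S100A1* followed with nearly equal fold changes. S100 genes encode small calcium-binding proteins. *S100A16* was at 0.351 and 0.652 CPM with Control, 19.6 and 21.7 CPM with DREAM, 9.86 and 10.5 CPM with SAM and 4.89 and 4.81 CPM with dCas9-VPR, and its log2 fold change was 3.43 (SE 0.12, limma adjusted p = 1.38e-07). *S100A1* was at 1.12 and 1.18 CPM with Control, 19.2 and 26.9 CPM with DREAM, 4.79 and 6.11 CPM with SAM and 10.7 and 11.1 CPM with dCas9-VPR (log2 fold change 2.82, SE 0.13, limma adjusted p = 9.85e-07). Both were highest with DREAM, but *S100A16* was lowest with dCas9-VPR and *S100A1* with SAM, so the order of the systems differed between genes 14.8 kb apart. *S100A13* starts between them and overlaps *S100A1*, as does *AL162258.1*, and how reads were divided among these gene models was not tested. The 250 bases before the RefSeq starts of *S100A16* and *S100A1* (GRCh38.p14) are shown because these genes lie on opposite strands and rose together. They are chr1:153613138-153613387 on the minus strand, for the first of 2 listed starts, and chr1:153628184-153628433 on the plus strand. Capitals would mark a TATA box, GC box, CCAAT box, E box, cAMP response element or interferon element, and neither window holds one of the letters searched.
S100A16: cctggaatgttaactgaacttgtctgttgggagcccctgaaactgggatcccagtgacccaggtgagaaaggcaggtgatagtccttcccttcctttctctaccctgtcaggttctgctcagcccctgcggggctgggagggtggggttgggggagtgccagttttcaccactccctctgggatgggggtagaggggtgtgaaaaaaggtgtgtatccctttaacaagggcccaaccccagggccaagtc
S100A1: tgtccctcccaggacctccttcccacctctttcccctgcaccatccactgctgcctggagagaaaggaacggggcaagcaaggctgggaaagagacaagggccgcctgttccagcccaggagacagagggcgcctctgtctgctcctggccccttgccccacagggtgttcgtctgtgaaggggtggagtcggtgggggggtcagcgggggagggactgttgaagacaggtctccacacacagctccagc

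*LEFTY2* encodes a secreted inhibitor of nodal signalling. It was at 0.313 and 0.412 CPM with Control, 5.71 and 7.68 CPM with DREAM, 7.40 and 8.51 CPM with SAM and 3.66 and 3.04 CPM with dCas9-VPR, a log2 fold change of 2.83 (SE 0.14, limma adjusted p = 1.21e-06). *B3GNT8*, a glycosyltransferase gene, rose from 0.734 and 0.326 CPM to between 3.63 and 7.76 CPM. *ADAMTS4*, which encodes an aggrecan-cleaving protease, was at 0.798 and 1.21 CPM with Control, 10.8 to 14.7 CPM with DREAM and SAM, and 2.66 and 2.41 CPM with dCas9-VPR. The muscle intermediate filament gene *DES* (log2 fold change 2.15) was at 0.479 and 0.554 CPM with Control and at least 2.20 CPM with each activator. The troponin gene *TNNC1* (log2 fold change 1.97) was at 0.798 and 0.685 CPM and then at 3.18 to 8.78 CPM. The proteoglycan gene *CSPG4* was at 7.35 and 5.70 CPM with Control and 18.2 to 42.9 CPM with the activators (log2 fold change 2.05), and *FBLN2*, a fibulin of the matrix, was at 2.36 and 3.16 CPM and then at 8.50 to 15.6 CPM (log2 fold change 1.98). The Control mean was below 3 CPM for 148 of the 191 rises past the threshold. By the mean over all 8 libraries, 93 of the 191 were below 3 CPM, as were 2739 of the 15122 genes tested. A gene silent in Control was tested only where at least 2 activator libraries reached 1 CPM. A gene silent with the activators was tested only where both Control libraries did. The filter thus bears on which rises and falls are seen, and without it 194 rose and 86 fell past the threshold.

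**Figure D2:**
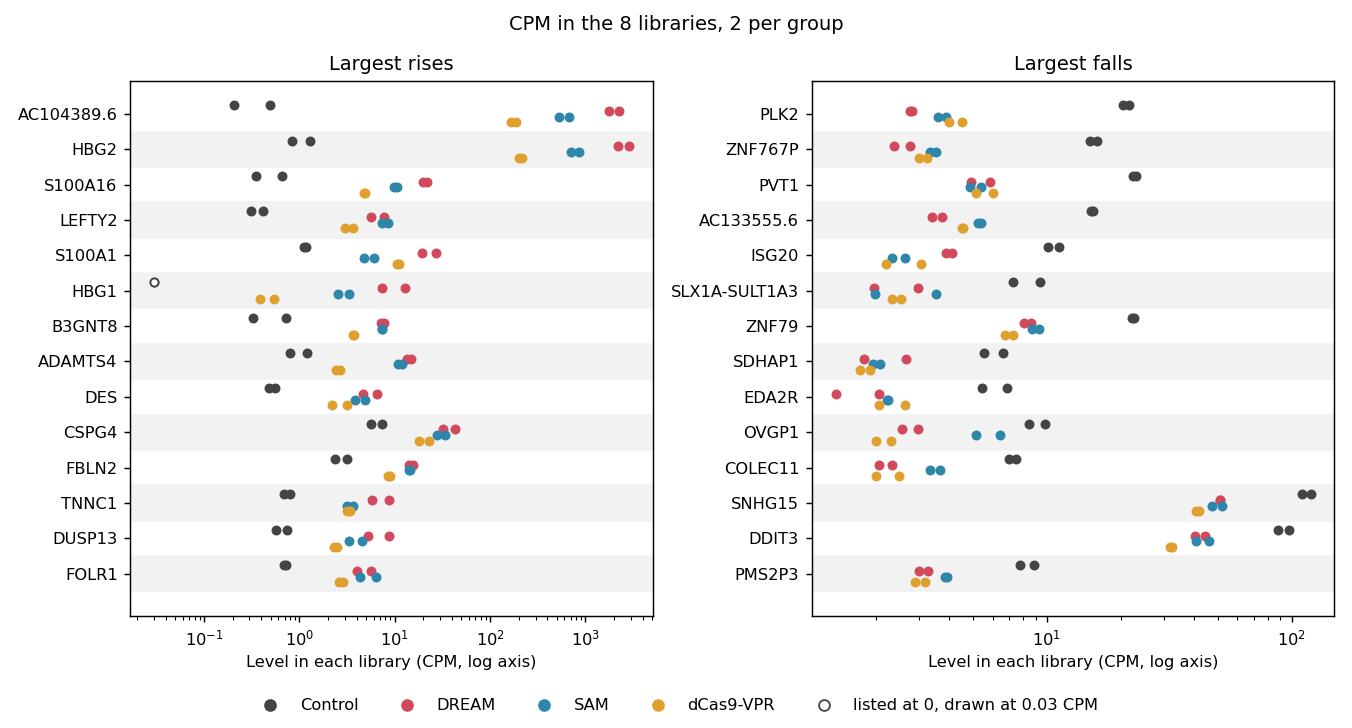
Points are the CPM values (log axes) of the 14 largest rises and 14 largest falls in each of the 8 libraries, coloured by group, with *HBG1* listed at 0 in Control drawn as an open circle. The 2 Control values stand apart from all 6 activator values in every row.

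Falls of the same size were fewer. The largest, at a mean of 3 CPM or more, was that of *PLK2*, a polo-like kinase gene that p53 induces. It was at 21.6 and 20.5 CPM with Control, 2.82 and 2.77 CPM with DREAM, 3.6 and 3.87 CPM with SAM and 3.98 and 4.52 CPM with dCas9-VPR, a log2 fold change of -2.41 (SE 0.097, limma adjusted p = 2.78e-07). *PVT1*, a long noncoding RNA gene next to *MYC*, went from 23.2 and 22.5 CPM to between 4.86 and 6.03 CPM (log2 fold change -2.00, limma adjusted p = 1.38e-06). *ISG20*, an interferon-induced exonuclease gene, went from 10.1 and 11.2 CPM to between 2.21 and 4.11 CPM (log2 fold change -1.68, limma adjusted p = 1.42e-05). The F test among the systems gave an adjusted p of 0.0175 for *PLK2* and 0.024 for *ISG20*, and no difference was detected for *PVT1* (adjusted p = 0.734). *ZNF767P*, *AC133555.6*, *SLX1A-SULT1A3*, *SDHAP1* and *PMS2P3* are also among the 14 largest falls, and each is a pseudogene, read-through or repeated gene model whose reads may be shared with a copy. Lower in level, and named after their values were seen, *CR381653.2* went from 5.27 and 4.92 CPM to between 0.174 and 0.325 CPM and *CYP4F3* from 3.89 and 2.84 CPM to between 0.0964 and 0.316 CPM.

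Changes were also read by function. Lists of genes were compared with the shares over all genes tested, which are 27.5% risen and 9.67% fallen, or 17.5% and 16.1% under median-of-ratios scaling. Leaving out a Control library lowered the counts over all genes as well, so list counts from those fits cannot be read against these shares. Of 79 cytosolic ribosomal protein genes, 58 fell, 0 rose and 21 did not pass the test, with a median log2 fold change of -0.17 and values between -0.33 and 0.069. In 53 of them all 6 activator values lay below Control and in 0 above. *RPL11*, a protein of the large ribosomal subunit that also binds MDM2, was at 1899 and 1986 CPM with Control and between 1511 and 1649 CPM with the activators (log2 fold change -0.32, SE 0.040, limma adjusted p = 0.000263). *RPL7A* was at 3297 and 3566 CPM and then at 2375 to 3248 CPM, and *RPS15A* at 1943 and 2000 CPM and then at 1525 to 1650 CPM. The changes were small, and leaving out a Control library moved the count strongly. Without Control replicate 2, 15 of the 79 fell, against 3.81% of all genes in that fit, and under median-of-ratios scaling 71 fell. The summed level of the list was 195927 to 207982 CPM with Control and 169611 to 190564 CPM with the activators.

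Genes that host small nucleolar RNAs in their introns also fell, with a larger median. Of 19 tested, 14 fell and 0 rose, with a median log2 fold change of -0.40, and 12 lay below Control in all 6 libraries. With each library left out in turn, at least 11 fell. *SNHG15* was at 110.2 and 119.7 CPM with Control, 51.0 and 51.0 CPM with DREAM, 47.2 and 51.9 CPM with SAM and 42 and 40.6 CPM with dCas9-VPR, a log2 fold change of -1.28 (SE 0.056, limma adjusted p = 5.58e-07). *SNHG12* went from 29.5 and 30.8 CPM to between 9.56 and 19.7 CPM (log2 fold change -1.15), *SNHG17* from 52.6 and 57.4 CPM to between 17.3 and 37.6 CPM (log2 fold change -1.04), and *SNHG9* from 4.75 and 5.31 CPM to between 1.39 and 2.99 CPM (log2 fold change -1.29). In *SNHG12* and *SNHG17* the dCas9-VPR libraries were the lowest. The better expressed *SNHG1*, named after its values were seen, was at 176.8 and 192.4 CPM with Control and 91.6 to 142.8 CPM with the activators (log2 fold change -0.67, limma adjusted p = 5.68e-05). Among 36 translation factor genes, 13 fell and 1 rose. The elongation factor gene *EEF2* was at 6605 and 6505 CPM with Control and 4993 to 5787 CPM with the activators (log2 fold change -0.29, limma adjusted p = 0.000237), and *RACK1*, which encodes a ribosome-bound scaffold, was at 5507 and 5876 CPM and then at 4204 to 5110 CPM. *EIF4G2*, an initiation factor gene of the eIF4G family that does not bind the cap-binding protein EIF4E, was the 1 that rose, from 443.0 and 431.7 CPM to between 499.3 and 567.1 CPM. Without Control replicate 2, 4 translation factor genes fell. By contrast, among 30 ribosome biogenesis genes 3 fell and 3 rose, and 7 fell under median-of-ratios scaling.

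Transcripts of ribosomal proteins, several translation factors and many snoRNA host genes are known to start with a C followed by a run of pyrimidines, the TOP tract, which links their translation or stability to growth signalling. The RefSeq starts of the members were therefore read, from promoter entries that matched 72.6% of genes tested by symbol. A C followed by at least 4 further C or T lay within 10 bases of the start on the sense strand in 82.5% of the ribosomal protein genes with an entry, 73.3% of the host genes and 50% of the translation factors, against 28.9% of all genes tested, 31.6% of all members below and 28.3% of all members above. The tract was thus common in these lists and not in the members below as a whole, and its presence near a listed start is a description of the sequence only. Windows of 20 bases around the start, 10 on each side, are shown for the named genes with an entry, with the longest tract in capitals. They are chr1:28581864-28581883, chr20:38435319-38435338, chr9:133348208-133348227, chr1:23691769-23691788, chr19:3985454-3985473, chr5:181243897-181243916, chr11:10807987-10808006 and chr2:206159599-206159618, with *RPL7A*, *RPL11* and *EEF1B2* on the plus strand and the others on the minus strand. The tract was 17 bases long in *RPL7A*, 18 in *RACK1* and 11 in *SNHG12*, and 7 bases in *EIF4G2*, which rose. The elongation factor gene *EEF1B2*, named by the same rule, fell (log2 fold change -0.24, limma adjusted p = 0.00328) and its window holds no tract.
SNHG12: gcttcagcgCCCTTTCTCCC
SNHG17: gtgtggcctcagtCCTTCgc
RPL7A: attCCCTTTCCTTTCTCTCT
RPL11: cctggcccataaggCCCTCg
EEF2: cgtcagcgttCTCTTCCgcc
RACK1: gCTTTTCTCTCTCTCTTTCa
EIF4G2: tgtcggaagcaCTTCCCTaa
EEF1B2: aagtggccccagcctcgagg

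Targets of ATF4 and the unfolded protein response, the arm of the stress response that CHOP and amino acid transporters belong to, also fell. Of 30 genes, 15 fell and 1 rose, with a median log2 fold change of -0.17, and 14 lay below Control in all 6 libraries and 0 above. *DDIT3*, which encodes CHOP, was at 87.6 and 97.9 CPM with Control, 44.3 and 40.3 CPM with DREAM, 45.8 and 40.6 CPM with SAM and 31.8 and 32.6 CPM with dCas9-VPR, a log2 fold change of -1.24 (SE 0.068, limma adjusted p = 1.97e-06). The pseudokinase gene *TRIB3* went from 288.5 and 290.2 CPM to between 136.6 and 208.8 CPM (log2 fold change -0.72, limma adjusted p = 1.47e-05). *ATF3* and *CHAC1*, a stress-induced transcription factor and a glutathione-degrading enzyme, both had a log2 fold change of -0.57. *ATF3* went from 234.7 and 252.3 CPM to between 158.3 and 171.1 CPM. *SLC3A2*, the heavy chain of amino acid transporters, was at 481.0 and 490.6 CPM with Control and 346.6 to 371.3 CPM with the activators. *HERPUD1* (log2 fold change -0.41, limma adjusted p = 0.000406) and *XBP1* (log2 fold change -0.33, limma adjusted p = 0.000137), named after their values were seen, encode an endoplasmic reticulum degradation factor and a transcription factor of the response. *DDIT3* and *TRIB3* were lowest with dCas9-VPR (F test adjusted p = 0.00695 and 0.00112), and no difference among the systems was detected for *ATF3*, *CHAC1* and *SLC3A2* (adjusted p of 0.446 to 0.707). Leaving out each library in turn left at least 13 falls.

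The composite element that C/EBP proteins form with ATF4, searched as TGATGNAA on both strands of the 250 bases before the start, was in 13.8% of the promoters of this list, against 1.37% of all genes tested. The list was made of known targets, so this share describes the list and not a change in these data. The CCAAT box, searched as CCAAT, was in 65.5% against 35.2%. Over all members, CCAAT was in 46.0% of promoters below and 29.5% of promoters above. The windows of *CHAC1*, *HERPUD1*, *ATF3* and *DDIT3* are printed to show where these letters lie, with composite and CCAAT matches in capitals and no other motif marked. They are chr15:40953221-40953470, chr16:56931892-56932141 and chr1:212565157-212565406 on the plus strand and chr12:57520515-57520764 on the minus strand, the last pair for the first of 2 listed starts. The composite matches of *CHAC1* and *HERPUD1* read TTGCATCA on the sense strand, 209 and 176 bases before the start, and that of *ATF3* reads TGATGGAA, 191 bases before it. The *DDIT3* window has no composite match, which says only that these letters are not in it. No composite match overlapped a CCAAT match.
CHAC1: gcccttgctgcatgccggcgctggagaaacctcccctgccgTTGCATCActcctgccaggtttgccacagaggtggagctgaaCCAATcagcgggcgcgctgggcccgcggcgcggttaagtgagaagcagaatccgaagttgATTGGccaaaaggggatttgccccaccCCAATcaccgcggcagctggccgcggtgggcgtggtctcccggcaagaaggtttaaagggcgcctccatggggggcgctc
HERPUD1: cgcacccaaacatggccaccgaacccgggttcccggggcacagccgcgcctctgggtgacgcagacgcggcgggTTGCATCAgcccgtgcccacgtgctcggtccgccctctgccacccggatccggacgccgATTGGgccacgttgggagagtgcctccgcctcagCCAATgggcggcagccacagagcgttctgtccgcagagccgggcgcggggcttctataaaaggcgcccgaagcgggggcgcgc
ATF3: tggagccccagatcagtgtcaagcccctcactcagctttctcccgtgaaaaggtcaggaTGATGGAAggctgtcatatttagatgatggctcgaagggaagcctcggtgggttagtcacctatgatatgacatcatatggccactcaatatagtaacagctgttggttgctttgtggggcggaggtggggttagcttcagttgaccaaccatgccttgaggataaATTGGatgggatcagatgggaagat
DDIT3: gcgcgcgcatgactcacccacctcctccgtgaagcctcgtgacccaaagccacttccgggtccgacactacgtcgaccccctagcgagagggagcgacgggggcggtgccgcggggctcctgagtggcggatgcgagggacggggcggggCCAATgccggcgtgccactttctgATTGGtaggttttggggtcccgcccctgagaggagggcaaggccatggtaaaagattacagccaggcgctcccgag

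Genes of the p53 response did not all move one way. Of 30 tested, 11 fell and 7 rose, with a median log2 fold change of -0.10 against 0.097 over all genes. Falls were thus more frequent than the 9.67% of all genes tested, and rises were not more frequent than the 27.5%. Under median-of-ratios scaling 13 fell and 5 rose, against 16.1% and 17.5% of all genes. Besides *PLK2*, the nucleotide excision repair gene *DDB2* went from 59.7 and 61.4 CPM to between 24.1 and 33.9 CPM (log2 fold change -1.08, SE 0.054, limma adjusted p = 1.27e-06). *AEN*, an apoptosis-enhancing nuclease gene, went from 289.9 and 292.1 CPM to between 134.6 and 164.2 CPM (log2 fold change -0.96, limma adjusted p = 9.8e-07). *EDA2R*, which encodes a death receptor of the TNF family and is not among the 30, went from 5.42 and 6.88 CPM to between 1.37 and 2.63 CPM. The apoptosis gene *BBC3*, named after its values were seen, had a log2 fold change of -0.79 (limma adjusted p = 1.88e-05). In the other direction, *TP53I3*, a quinone oxidoreductase gene, went from 4.85 and 4.76 CPM to between 10.2 and 18.2 CPM (log2 fold change 1.40, limma adjusted p = 5.17e-06) and the antiproliferative gene *BTG2* from 30.1 and 26.9 CPM to between 45.1 and 51.5 CPM (log2 fold change 0.77). HEK293T cells carry a viral antigen that binds p53. Leaving out a library left at least 8 falls (without Control replicate 1) and 3 rises (without Control replicate 2).

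DNA replication genes fell in most cases, 25 of 36 against 1 that rose, with a median log2 fold change of -0.24. The licensing factor gene *CDT1* went from 232.8 and 223.1 CPM to between 141.0 and 190.3 CPM (log2 fold change -0.47, limma adjusted p = 0.000478). The origin-binding gene *CDC6* went from 147.3 and 151.7 CPM to between 103.7 and 126.6 CPM and the helicase gene *MCM5* from 191.5 and 189.2 CPM to between 134.1 and 169.4 CPM. In all 3 the dCas9-VPR values lay nearest to Control. Mitosis genes fell in 18 of 30 cases and rose in 0, but in 3 of the 30 did all 6 values lie below Control. Their median log2 fold change relative to the shared Control was -0.38 with DREAM, -0.32 with SAM and 0.072 with dCas9-VPR. *CDC20*, an activator of the anaphase-promoting complex, was at 170.3 and 180.4 CPM with Control, 112.4 and 118.6 CPM with DREAM, 108.4 and 102.3 CPM with SAM and 160.1 and 164.3 CPM with dCas9-VPR (F test adjusted p = 0.000339 among the systems). The kinesin gene *KIF20A*, named after its values were seen, was at 70.1 and 69.2 CPM with Control, 37.2 to 42 CPM with DREAM and SAM and 69.6 and 70.0 CPM with dCas9-VPR. In both genes the dCas9-VPR values lay near Control and the DREAM and SAM values below it. Without Control replicate 2, 9 mitosis genes fell.

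Of 14 genes that respond to the glucose sensor MondoA or to glucocorticoids, 4 fell and 3 rose, with a median log2 fold change of -0.12. Under median-of-ratios scaling 6 fell, and without Control replicate 2 there was 1 rise. *TXNIP*, a glucose-responsive inhibitor of thioredoxin, went from 269.4 and 272.2 CPM to between 126.8 and 192.4 CPM (log2 fold change -0.78, SE 0.077, limma adjusted p = 0.000104). *DDIT4*, an inhibitor of mTORC1, went from 634.0 and 646.2 CPM to between 353.3 and 531.0 CPM (log2 fold change -0.57), and the glucocorticoid-induced *TSC22D3* from 1039 and 1181 CPM to between 704.9 and 884.4 CPM. *MLXIPL*, which encodes the glucose-responsive factor ChREBP, rose (log2 fold change 0.40, limma adjusted p = 0.00636). The lysosomal genes *MCOLN1* (-0.68), *NEU1* (-0.65) and *FLCN* (-0.63, all log2 fold changes) fell, while of 37 lysosome and autophagy genes 15 rose and 11 fell. Both counts were smaller without Control replicate 2, as were those over all genes, and under median-of-ratios scaling they were 8 and 13. The 4 ID genes, dominant-negative partners of basic helix-loop-helix factors and readouts of BMP signalling, were all below Control. *ID3* went from 62.9 and 74.6 CPM to between 28.9 and 57.4 CPM (log2 fold change -0.77, limma adjusted p = 0.00291). *ID2* (log2 fold change -0.63) and *ID4* (-0.29) also fell, as did *ID1* (-0.64), for which the limma adjusted p was 0.0509 without Control replicate 2. These family counts were made after the values were seen.

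Genes of antigen presentation and antiviral restriction were read among the interferon-stimulated genes. Of 29 tested, 16 rose and 3 fell, with a median log2 fold change of 0.29, and at least 12 rose with any 1 library left out. *PSMB9*, an immunoproteasome subunit, was at 0.702 and 0.978 CPM with Control, 2.69 and 3.16 CPM with DREAM, 3.6 and 5.12 CPM with SAM and 2.78 and 2.92 CPM with dCas9-VPR, a log2 fold change of 1.51 (SE 0.15, limma adjusted p = 8.11e-05). *IRF9*, the DNA-binding subunit of the ISGF3 complex and named after its values were seen, went from 3.67 and 4.27 CPM to between 5.94 and 8.15 CPM (log2 fold change 0.82, limma adjusted p = 0.000771). *ISG20* and *IFI27* went the other way, the latter from 4.05 and 4.30 CPM to between 1.52 and 2.13 CPM. The interferon-stimulated response element, searched on both strands as GAAA, any 2 bases and GAAA, was in 69.6% of the promoters of this list against 2.16% of all genes tested, and in 2.15% of all members above. The list was made of known interferon-stimulated genes, so the 69.6% describes the list and not a change in these data. *PSMB9* and *TAP1* are transcribed away from each other from a shared promoter region, and both genes rose. *TAP1*, a peptide transporter subunit, went from 48.2 and 49.0 CPM to between 57.6 and 69.1 CPM (log2 fold change 0.36, limma adjusted p = 0.00232). The 250 bases before the *PSMB9* start, chr6:32853942-32854191 on the plus strand, are shown with the CCAAT box and GC boxes in capitals, and the response element and gamma-activated site letters (TTCNNNGAA) were not found in this window.
PSMB9: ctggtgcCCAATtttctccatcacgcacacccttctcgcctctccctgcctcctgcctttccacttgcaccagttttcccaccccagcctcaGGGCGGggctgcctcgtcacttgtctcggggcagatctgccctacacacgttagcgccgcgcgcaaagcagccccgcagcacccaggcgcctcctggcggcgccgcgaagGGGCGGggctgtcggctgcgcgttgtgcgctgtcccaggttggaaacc

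HLA class II genes, which present extracellular peptides and are normally restricted to immune cells, were low and rose. Of 10 tested, a family counted after the values were seen, 9 rose and 8 lay above Control in all 6 libraries, with a median log2 fold change of 0.95. At least 8 rose with any library left out. With 1 mean for all activator libraries 6 of the 10 rose, against 8.63% of all genes tested. *HLA-DPA1*, also named after its values were seen, was at 12.1 and 11.2 CPM with Control, 31.2 and 33.8 CPM with DREAM, 28.2 and 31.1 CPM with SAM and 18.4 and 18.9 CPM with dCas9-VPR (log2 fold change 1.14, SE 0.072, limma adjusted p = 4.79e-06). *HLA-DRB1* went from 10.3 and 12.3 CPM to between 17.1 and 30.6 CPM and *HLA-DMA*, a peptide-loading chaperone gene, from 2.55 and 3.26 CPM to between 5.89 and 10.6 CPM. *HCP5*, a noncoding gene of the same region, went from 6.85 and 7.51 CPM to between 17.9 and 42.1 CPM (log2 fold change 1.90, limma adjusted p = 2.78e-07). HLA genes are similar to each other, so that reads may be divided unevenly among them.

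The APOBEC3 genes on chromosome 22, cytidine deaminases that restrict retroviruses, were counted after the values were seen, and 6 of the 6 tested rose. With no filter on low values 7 were tested and 6 rose. With 1 mean for all activator libraries 4 of the 6 rose, against 8.63% of all genes tested. *APOBEC3G* was at 1.29 and 1.21 CPM with Control, 6.08 and 5.43 CPM with DREAM, 7.86 and 9.01 CPM with SAM and 4.96 and 4.15 CPM with dCas9-VPR (log2 fold change 1.90, SE 0.11, limma adjusted p = 3.71e-06). *APOBEC3B*, the member expressed at 15.1 and 16.5 CPM with Control, reached 23.2 to 29.5 CPM (log2 fold change 0.78). *STING1*, the adaptor of cytosolic DNA sensing, went from 1.5 and 1.14 CPM to between 3.72 and 4.68 CPM (log2 fold change 1.40, limma adjusted p = 2.74e-05) without a detected difference among the systems (F test adjusted p = 0.408).

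Lists of matrix, epithelial and cytoskeletal genes were read in the same way. Of 43 collagen, laminin and matrix genes, 24 rose and 4 fell, with a median log2 fold change of 0.32, and 22 lay above Control. *SPARC*, a collagen-binding glycoprotein gene, was at 13.4 and 13.9 CPM with Control and 34.2 to 43.1 CPM with the activators (log2 fold change 1.41, SE 0.082, limma adjusted p = 2.92e-06), and no difference among the systems was detected (F test adjusted p = 0.37). *COL9A3* (log2 fold change 1.03) went from 5.46 and 6.14 CPM to between 8.39 and 17.4 CPM and *COL6A3* (log2 fold change 1.01) from 1.85 and 1.76 CPM to between 2.89 and 6.26 CPM. The number of rises was 12 without Control replicate 2. The summed level of 3 fibroblast markers was 13.3 to 14.2 CPM with Control and 13.8 to 19.4 CPM with the activators, and the part of other cells in these values was not tested. Of 19 keratin and simple epithelium genes, 9 rose and 1 fell. The water channel gene *AQP3* went from 10.1 and 11.9 CPM to 40.1 and 47.1 CPM with DREAM, 34.4 and 38.7 CPM with SAM and 18.1 and 19.9 CPM with dCas9-VPR (log2 fold change 1.47, limma adjusted p = 4.54e-06). The keratin gene *KRT8* went from 50.2 and 45.2 CPM to between 78.5 and 112.6 CPM (log2 fold change 1.03), and its partner *KRT18*, named after its values were seen, from 82.4 and 79.7 CPM to between 91.1 and 101.3 CPM (log2 fold change 0.24).

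Targets of SRF and its cofactors of the MRTF family rose in 12 of 25 cases and fell in 2, with a median log2 fold change of 0.18. The smooth muscle genes *CNN1* (log2 fold change 0.95) and *ACTA2* (0.73) lay above Control in all 6 libraries. *CNN1* was at 1.4 and 1.53 CPM with Control, 4.27 and 4.39 CPM with DREAM and 2.63 to 3.08 CPM with SAM and dCas9-VPR, and the systems differed (F test adjusted p = 0.0274). *ACTA2* was at 19.9 and 16.5 CPM with Control and 24.6 to 34.1 CPM with the activators, and no difference among the systems was detected (F test adjusted p = 0.249). Without Control replicate 2, 4 of these targets rose, and 7 did under median-of-ratios scaling. Of 32 glycolysis and hypoxia genes, 11 rose and 1 fell, among them the glucose transporter gene *SLC2A1* (log2 fold change 0.84), from 22.8 and 23.1 CPM to between 33.1 and 52.7 CPM, and *ALDOC* (0.85), an aldolase gene. The number of rises was 7 without Control replicate 2 and also 7 under median-of-ratios scaling. Against 27.5% risen and 9.67% fallen among all genes tested, 7 of 26 nodal, TGF-beta and SMAD feedback genes rose and 5 fell. Besides *LEFTY2* these included *TGFB1*, named after its values were seen, from 21.1 and 19.2 CPM to between 28.1 and 36.4 CPM, while the inhibin subunit gene *INHBE* went from 60.4 and 74.0 CPM to between 29.9 and 37.4 CPM (log2 fold change -1.02, limma adjusted p = 1.93e-05). *NFE2*, an erythroid and megakaryocytic transcription factor gene, went from 0.319 and 0.228 CPM to between 0.945 and 3.90 CPM (log2 fold change 1.82, limma adjusted p = 1.47e-05). Of the 7 erythroid genes tested 2 rose, a share close to the 27.5% over all genes tested.

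**Figure D3:**
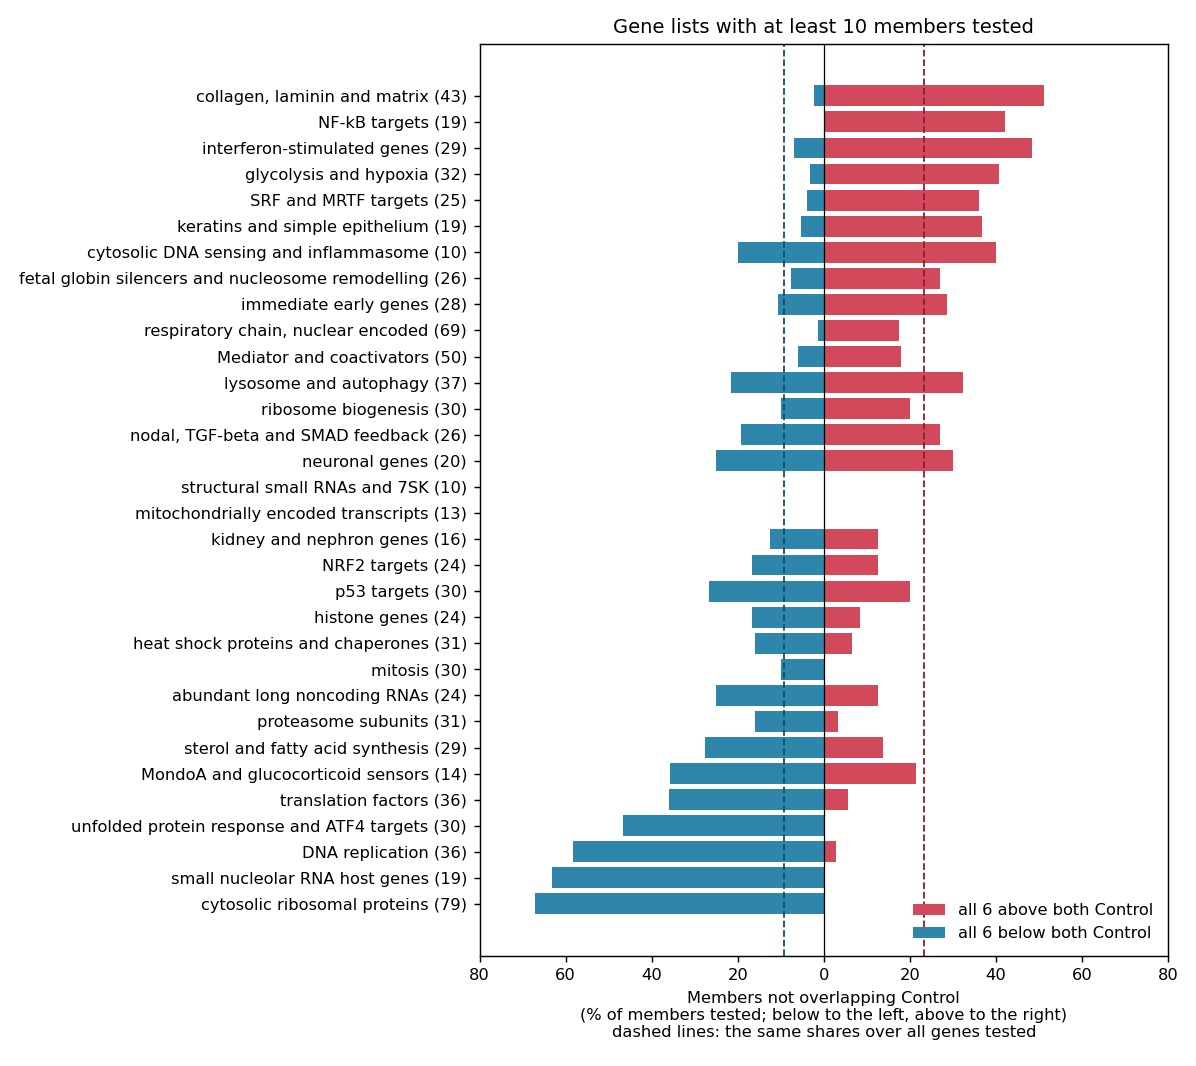
Bars give, for each list with at least 10 members tested (number in brackets), the percent of members whose 6 activator values lay below (left, blue) or above (right, red) both Control values, with dashed lines at the same shares over all genes tested, 9.17% and 23.2%. Ribosomal protein, snoRNA host, replication and ATF4 lists extend far to the left and have few or no members above, while matrix and interferon lists extend to the right.

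By position, the share of genes above Control was highest on chromosomes 22 (30%), 17 (28.3%) and 1 (27.7%) and, leaving out the mitochondrial genome, lowest on 13 (16.2%) and 4 (16.9%). Genes below Control were most frequent on chromosome 19, at 14%. Zinc finger genes had a larger share than the rest of the chromosome. Of 193 genes on chromosome 19 named ZNF, ZIK, ZSCAN or ZFP, 49 lay below Control (25.4%) and 7 above (3.63%), whereas the other genes of the chromosome had 11.4% below and 23.4% above. Elsewhere 274 genes of these names had 16.4% below and 13.9% above. Under median-of-ratios scaling the zinc finger genes of chromosome 19 had 40.4% below, the other genes of the chromosome 15.4%, and chromosomes 22, 17 and 1 still had the highest shares above, at 21.9%, 20.4% and 20%. By level, genes at 300 CPM and more differed from the rest, with 26.7% below and 11.4% above. Transcribed unprocessed pseudogenes lay below in 24.1% of cases.

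Adjacent genes that lay on the same side formed 9 runs of at least 6 genes tested. The longest below was in the KRAB zinc finger cluster at the end of chromosome 19, from *ZNF550* to *ZNF776* (chr19:57535257-57758149), where 8 genes had log2 fold changes between -1.12 and -0.26 and 7 passed the test. *ZIK1* was at 4.66 and 4.38 CPM with Control and 1.22 to 2.21 CPM with the activators, and *ZNF211* at 17.1 and 16.4 CPM and then at 7.20 to 8.87 CPM (log2 fold change -0.96, limma adjusted p = 3.33e-05). KRAB zinc finger proteins are repressors that mostly bind transposable elements, and the genes are similar enough in sequence for reads to be shared. Nearer the start of the chromosome, *ZNF57* and *ZNF77*, 14.7 kb apart on opposite strands, had log2 fold changes of -1.2 and -1.13.

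Of the 7 runs above Control, the longest was of 8 genes on chromosome 22, from *KCTD17* to *CDC42EP1* (chr22:37051736-37569406), with log2 fold changes between 0.28 and 1.42. All 8 passed the test, and 6 did so without Control replicate 2. *MFNG*, a Notch glycosyltransferase gene, changed most, from 0.702 and 1.04 CPM to between 1.92 and 4.11 CPM. The APOBEC3 run spans chr22:38982347-39104068, and all 6 of its genes passed the test with any library left out. The run from *TAP2* to *HLA-DMA* (chr6:32821833-32969095) had 6 genes with log2 fold changes of 0.36 to 1.51. In the S100 run of 6 genes on chromosome 1 (chr1:152032506-153634341), *S100A11* rose by 0.31 and *S100A13* by 0.73 on the log2 scale, beside *S100A16* and *S100A1*. Under median-of-ratios scaling the KCTD17, APOBEC3, TAP2 and both zinc finger runs were unbroken, with 8, 6, 6, 8 and 6 members not overlapping. The S100 run kept 5 of 6, the run from *LBX1* to *FBXW4* 4 of 6 and that from *HIGD1A* to *ABHD5* 3 of 6. In the run from *ZNF543* to *ZNF17*, which lies below Control, 3 of 6 genes passed the test, and 0 did when Control replicate 2 was left out. All 6 genes of the LBX1 run and 4 of the HIGD1A run passed it, but 3 of the former did without Control replicate 2 and 1 of the latter without Control replicate 1.

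**Figure D4:**
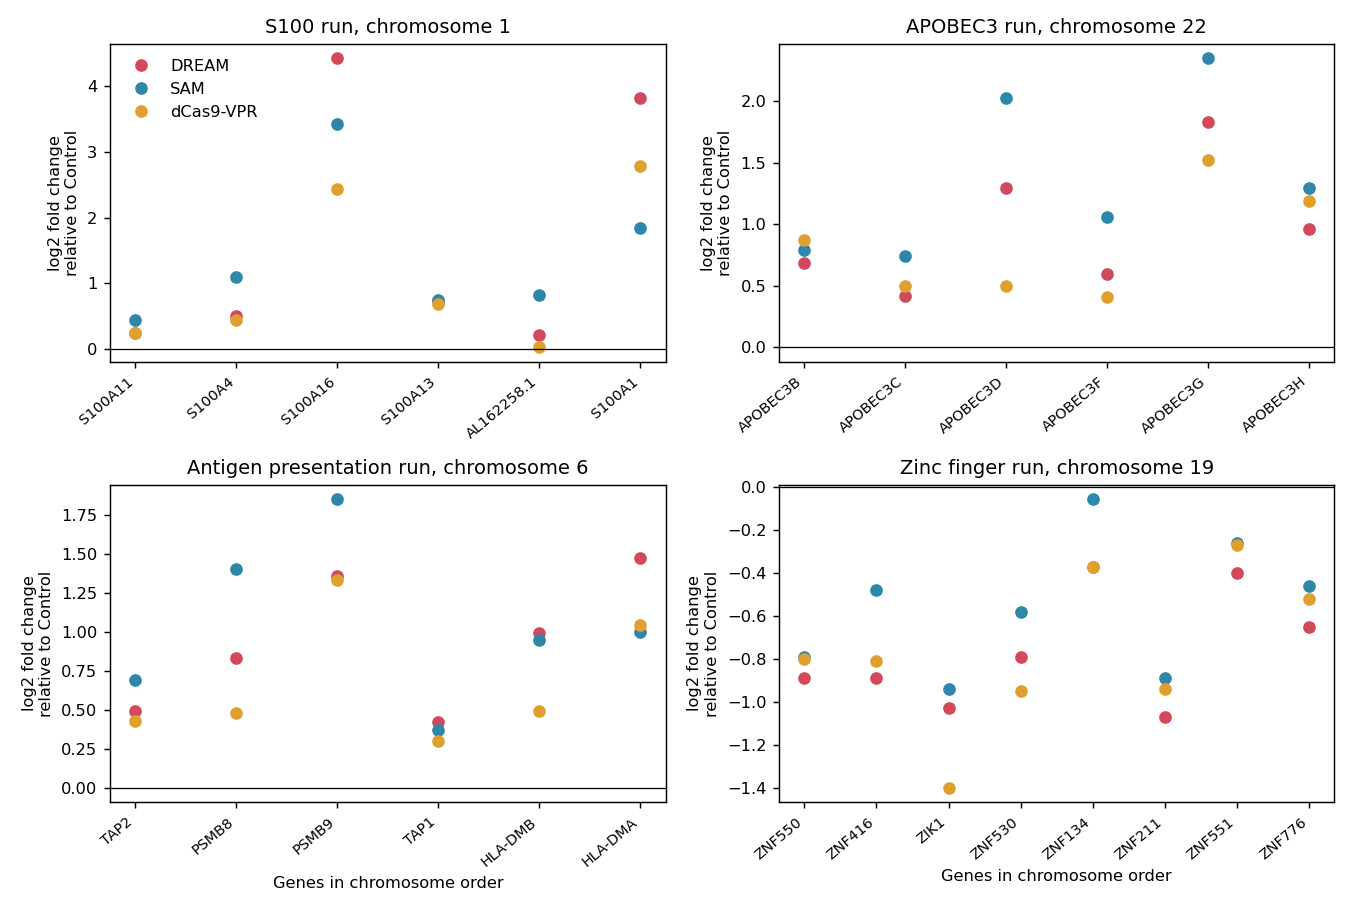
Points are log2 fold changes of DREAM, SAM and dCas9-VPR, each relative to the same 2 Control libraries, for the genes of 4 runs in chromosome order. In the S100 run *S100A16* and *S100A1* stand far above their neighbours, the APOBEC3 and antigen presentation runs lie above 0 in all 3 systems, and the zinc finger run lies below 0 in all 3.

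Among genes past the threshold, members within 50 kb of each other were nearly all rises. Rises outnumbered falls 177 to 74 among these members, so pairs of rises would be the commoner kind wherever the genes lay. *CACNG8* and *CACNG6*, calcium channel subunit genes 2.07 kb apart on chromosome 19, had log2 fold changes of 1.24 and 1.55, and the adhesion receptor genes *ADGRG1* and *ADGRG3*, 2.7 kb apart on chromosome 16, had 2.12 and 1.46. *ADGRG1* was at 0.192 and 0.131 CPM with Control and 1.09 to 3.70 CPM with the activators. *NCKAP1L* and *PDE1B* on chromosome 12 lie 1.36 kb apart, with 1.54 and 1.24. On chromosome 17 *CD68*, *SHBG* and *ATP1B2* had 1.66, 1.60 and 1.23, and *GH2* and *CD79B* had 1.38 and 1.35. With Control, *NCKAP1L* (0.227 and 0.457 CPM), *GH2* (0.0639 and 0.261 CPM) and *CD79B* (0.255 and 0.261 CPM) were nearly silent. Neighbours were not ordered alike by system, since *CD68* was lowest with SAM, at 2.93 and 3.06 CPM, while *SHBG* was lowest with dCas9-VPR, at 1.14 and 1.38 CPM. Counting by strand is not stated for these files, and reads that run from a gene into its neighbour cannot be told apart from transcription of the neighbour.

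The members were then compared among the 3 activators. Control means do not enter these differences, though the spread between the Control libraries enters their tests. The genes were chosen on the same activator values, so the shares over all genes are printed beside theirs as a description. Nothing is read from the gap. Of the 177 rises past the threshold that did not overlap Control, dCas9-VPR had the lowest mean in 156 (88.1%), against 45.6% of all genes tested, and the count was 152 under median-of-ratios scaling. The F test among the systems passed an adjusted p of 0.05 in 147 of them (83.1%), against 31.1% of all genes, and in 78 (44.1%) a pairwise fold change also exceeded 2, against 2.75%. DREAM was above dCas9-VPR by a median of 0.70 on the log2 scale (interquartile range 0.44 to 0.96), with 114 genes significantly higher and 1 lower. SAM was above dCas9-VPR by a median of 0.76 (0.46 to 1.14), with 131 higher and 3 lower. DREAM and SAM differed by a median of -0.014, with 23 genes higher with DREAM and 29 lower. Over all 15122 genes tested, the median of DREAM relative to dCas9-VPR was 0.016, with 1195 genes significantly higher and 788 lower. For SAM relative to dCas9-VPR the all-gene median was 0.1, with 3567 higher and 955 lower. For DREAM relative to SAM it was -0.09, with 241 higher and 1382 lower. The choice of these genes by a pooled rise bears on how far systems can differ, since a gene with a large effect in a single system also reaches a pooled fold change of 2.

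Among the 74 falls dCas9-VPR was lowest in 33 (44.6%), DREAM in 26 (35.1%) and SAM in 15 (20.3%). The same shares over all genes tested were close to these, at 45.6%, 34.5% and 20%. The F test passed in 18 (24.3%), against 31.1% of all genes. In 3 genes (4.05%) a pairwise fold change also exceeded 2, against 2.75% of all genes. The median differences were -0.051 for DREAM relative to SAM, 0.014 for DREAM relative to dCas9-VPR and 0.088 for SAM relative to dCas9-VPR. The median activator level was 1.76 CPM in the falls and 4.28 CPM in the rises. The added 0.5 CPM makes differences among the systems look smaller at the lower level, and the falls and rises are therefore not matched for these differences.

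**Figure D5:**
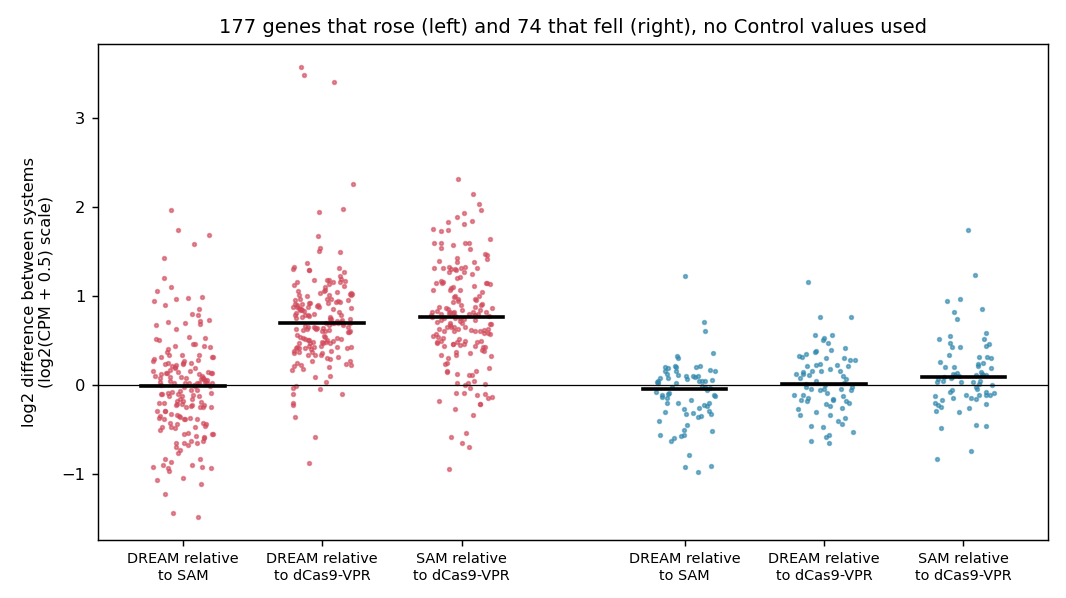
Each point is the log2 difference between 2 activators on the log2(CPM + 0.5) scale for 1 of the 177 rises (left, red) or 74 falls (right, blue) past the threshold, with black bars at the medians. The medians of DREAM and SAM relative to dCas9-VPR are 0.70 and 0.76 among the rises and 0.014 and 0.088 among the falls.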

How the data were processed

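Total RNA libraries (TruSeq Stranded Total RNA Gold kit per the study's methods, polyA RNA per the labels) were sequenced as paired 75-base reads. The authors aligned reads with STAR 2.7.3a to hg38 with Gencode 36, quantified genes with a Bayesian method and deposited CPM values for each library, to which 0.0001 CPM had been added. Whether counting used strand is not stated in the sources used here. The authors ran DESeq2 on their own comparisons, whose results were not used.

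Samples were grouped by their labels. Because the unit is CPM and only 62.6% to 68.3% of the low values came out as whole reads (within 0.02 reads), read counts were not recovered and no count model was run. The test was limma 3.58.1 (R 4.3.3) on log2(CPM + 0.5), with a trended, robust prior and a coefficient for each group, for genes reaching 1 CPM in 2 or more libraries, and the pooled contrast was the mean of DREAM, SAM and dCas9-VPR less Control. Differences among the activators were tested with limma's F test in the same fit. The Control mean does not enter that test, but the spread between the Control libraries does. P-values were adjusted by Benjamini-Hochberg over all 15122 genes. Fold changes above 2 with an adjusted p below 0.05 were past the threshold. The fit was tested on simulated data.

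The members and the gene lists were chosen with earlier results of these data known. Genes were named by a rule: the targets and effector genes, the 14 largest rises and falls with a mean of at least 3 CPM among members, up to 4 members of each list, runs and neighbours within 50 kb, and up to 5 well expressed members (at least 300 CPM) in each direction. Genes outside the rule are marked as named after their values were seen. *HBB* and *HBD* are not analysed here. Promoters came from RefSeq (GRCh38.p14), for the first start listed for each symbol, and matched 10984 genes tested. Alternatives were pseudocounts of 0.1 and 1 CPM, other filters and fold changes, median-of-ratios scaling, scaling without target and effector genes, 1 mean for all activators, a replicate block and leaving out each library. Python 3.11.15 and pandas 2.3.3 were used.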

Additional observations from a re-analysis of the deposited data

How the results depend on the processing

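Counts past the threshold were set mainly by how low values and the fold change were treated, against 265 genes (191 higher, 74 lower) for the pooled comparison and 416 for differences among the activators. A pseudocount of 0.1 CPM gave 495 genes (386 higher) and 664 among the activators. A pseudocount of 1 CPM gave 153 (104 higher, 49 lower) and 218. A filter at 10 CPM in 2 libraries gave 68 (48 higher, 20 lower) and 52. A fold change above 1.5 gave 1153 (897 higher, 256 lower), and no fold change threshold 5628 (4166 higher, 1462 lower). With 1 mean for all activator libraries, so that differences between systems enter the spread, 208 genes were past the threshold, and 62 of 240 named genes, *HBG1* among them, no longer passed their test. Median-of-ratios scaling gave 248, and 2226 genes lay below Control in place of 1387.

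Without each library in turn, 257 to 309 genes were past the threshold (187 to 248 higher, 55 to 77 lower), 297 to 458 among the activators, the lowest without SAM replicate 2, and 170 genes were past it in every such fit. The members numbered 3531 to 5464 above, the highest without Control replicate 1, and 1438 to 2045 below. With no fold change threshold, 1678 genes rose and 573 fell without Control replicate 2. The lone library left in a group is then assumed to vary like the others.

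Direction reversed for *RELA*, from 0.046 to -0.043 with median-of-ratios scaling and, without each library, between -0.014 (Control replicate 2 left out) and 0.11, none of which passed the test. That scaling turned the medians of the lists of ribosome biogenesis (-0.074), respiratory chain (-0.06), histone (-0.07), fetal globin silencer (-0.012), nodal (-0.015), neuronal (-0.047), kidney (-0.019) and metallothionein genes (-0.016) negative. The filter at 10 CPM did so for erythroid (-0.067), immediate early (-0.21), histone (-0.029), kidney (-0.14) and cytosolic DNA sensing genes (-0.0021). Median-of-ratios scaling moves all genes down and the filter leaves fewer genes, and beyond this the cause was not tested. Libraries share replicate numbers 1 and 2, and the sources used here do not say what a number marks. Between groups, replicate differences had correlations of 0.133 to 0.326, all above 0.1, so that a shared batch is possible, but the labels give no such batch and 2 numbers are too few to establish pairing. With a replicate block, 272 genes (198 higher, 74 lower) were past the threshold and 415 among the activators, and with no fold change threshold 5830 genes rose and 2160 fell.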

Other observations

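Further lists fixed for the comparison are given as values, read against 27.5% risen and 9.67% fallen among all genes tested, or 17.5% and 16.1% under median-of-ratios scaling. Counts with a Control library left out cannot be read against these shares, since the counts over all genes were then lower as well. Of 50 Mediator and coactivator genes, 16 rose and 2 fell, with 4 rises left without Control replicate 2 and 8 rises and 5 falls under median-of-ratios scaling. The nuclear receptor coactivator gene *NCOA3* went from 15.3 and 14.5 CPM to between 22 and 26.6 CPM (log2 fold change 0.66, limma adjusted p = 0.00014), and the acetyltransferase gene *KAT5* from 63.0 and 66.6 CPM to between 45.2 and 54.9 CPM. Of 26 genes that silence fetal globin or remodel nucleosomes, 8 rose and 3 fell, and without Control replicate 2 there were 3 rises, while median-of-ratios scaling gave 6 rises and 6 falls. *ZBTB7A*, which encodes the gamma-globin repressor LRF, was higher with the activators, at 6.67 to 11 CPM against 6.06 and 6.52 CPM (log2 fold change 0.51, limma adjusted p = 0.00395), as was *HIC2*, a repressor of *BCL11A* (log2 fold change 0.45).

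Of 20 neuronal genes, 9 rose and 7 fell. The granin gene *CHGA* (log2 fold change -1.05) and the calcium channel gene *CACNA1B* (-0.86) were lower and the synaptic adhesion gene *NRXN2* (0.94) higher. Of 28 immediate early genes, 7 rose and 6 fell, with *EGR3* going from 1.12 and 0.88 CPM to between 1.83 and 3.47 CPM (log2 fold change 1.06). Of 9 metallothionein and zinc transport genes, 4 rose and 1 fell, and the metal-binding *MT1X* went from 3 and 3.2 CPM to between 5.35 and 6.91 CPM (log2 fold change 0.85). Of 10 genes of cytosolic DNA sensing and the inflammasome, 4 rose and 2 fell. Among them the inflammasome sensor gene *NLRP1* went from 1.24 and 1.78 CPM to between 0.0643 and 0.343 CPM (log2 fold change -1.49, limma adjusted p = 0.0002). With a Control library left out, *NLRP1* and *CHGA* did not reach 1 CPM in 2 libraries and could not be tested. Of 24 abundant long noncoding RNAs 3 rose and 6 fell, the p53-induced *PURPL* going from 10.6 and 10.7 CPM to between 4.81 and 7.09 CPM.

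The remaining lists are given by their counts. Of 69 nuclear genes of the respiratory chain 9 rose and 2 fell, of 31 proteasome subunits 0 rose and 5 fell, of 31 chaperone genes 7 rose and 6 fell, and of 24 NRF2 targets 3 rose and 5 fell. Of 29 sterol and fatty acid synthesis genes 5 rose and 8 fell, of 19 NF-kB targets 5 rose and 2 fell, of 24 histone genes 5 rose and 5 fell, and of 16 kidney genes 2 rose and 5 fell. Of 13 mitochondrially encoded transcripts 1 rose and 0 fell, with log2 fold changes between 0.23 and 0.50 and summed levels of 8940 to 12254 CPM with Control and 9977 to 15937 CPM with the activators. Structural small RNAs were between 0.54 and 30.7 CPM on average, and of 10 tested 0 passed the test by limma. Several of these counts were smaller with a Control library left out, as were those over all genes. Without Control replicate 2, 1 chaperone, 1 NF-kB, 1 abundant noncoding, 2 sterol, 3 neuronal, 4 respiratory chain, 4 immediate early and 0 kidney genes rose, and 0 kidney, 0 histone, 1 proteasome, 2 immediate early and 5 sterol genes fell. Without Control replicate 1, 1 NRF2, 2 histone and 2 metallothionein genes rose, and 2 neuronal, 3 chaperone and 3 abundant noncoding genes fell. Median-of-ratios scaling gave 5 rises and 5 falls for the respiratory chain, 0 and 13 for the proteasome, 2 and 11 for chaperones, 2 and 8 for NRF2 targets, 3 and 13 for sterol synthesis and 5 and 9 for immediate early genes.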
